A study of Mus musculus with 12 samples.

Results

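The genotype comparison in the healthy brain was made on 6 of the 12 RNA sequencing libraries of the series, those labelled control diet, with 3 from Gli1Het and 3 from Gli1Null mice. Each library was made from GFP-positive neural stem cells (NSCs) that had been sorted by FACS from the dissected subventricular zone (SVZ) of 2 brains, and every label names 1 male and 1 female. Gli1Het mice carried Gli1CreERT2/+;RCEfx/fx and Gli1Null mice carried Gli1CreERT2/CreERT2;RCEfx/fx, both on C57BL/6. All of these mice received 5 mg of tamoxifen in corn oil in 4 intraperitoneal injections on alternate days from 10 weeks of age, and stayed on normal chow. CreERT2 was knocked into the Gli1 locus, so each copy of it takes the place of a working Gli1 copy. Gli1Het mice therefore kept 1 working copy and are not wild type, and in Gli1Null mice Gli1 was lost in the whole body and throughout development. The GFP reporter stays on in the descendants of a cell that once expressed the driver, so a sorted sample can hold stem cells and their progeny. Fewer cells of a type and less RNA per cell cannot be told apart in these bulk samples. The libraries are separate pools of mice, and the p-values measure the spread between pools.

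Gli1 is a zinc finger transcription factor at the end of the Hedgehog pathway. When a Hedgehog ligand binds the receptor Ptch1, the transducer Smo is released and the Gli proteins turn on their targets. Gli2 and Gli3 pass on the signal first, while Gli1 is itself a target and amplifies the response, and Ptch1 and Hhip are targets that dampen it. In the adult SVZ, Hedgehog signalling marks stem cells mainly of the ventral wall. SVZ stem cells are astroglia-like cells that produce transit amplifying cells, then neuroblasts that migrate to the olfactory bulb.

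The 3 Gli genes share the fingers that contact DNA, and the coding sequences of the last 2 of the 5 fingers are shown because 1 family member was lost in one genotype and the other two were measured in both. They come from the GENCODE M21 transcripts, run from the first cysteine codon of the fourth finger to the last histidine codon of the fifth, and have in capitals the 41 of 165 bases at which the 3 genes are not identical. Positions are counted from the first base of the start codon. The stretch of Gli1 (chromosome 10, minus strand) covers coding bases 1006 to 1170, that of Gli2 (chromosome 1, minus strand) bases 1543 to 1707 and that of Gli3 (chromosome 13, plus strand) bases 1732 to 1896.
Gli1: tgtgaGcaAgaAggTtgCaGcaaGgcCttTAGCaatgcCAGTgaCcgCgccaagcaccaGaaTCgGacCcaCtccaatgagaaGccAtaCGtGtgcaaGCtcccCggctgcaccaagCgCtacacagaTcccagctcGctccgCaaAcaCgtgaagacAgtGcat
Gli2: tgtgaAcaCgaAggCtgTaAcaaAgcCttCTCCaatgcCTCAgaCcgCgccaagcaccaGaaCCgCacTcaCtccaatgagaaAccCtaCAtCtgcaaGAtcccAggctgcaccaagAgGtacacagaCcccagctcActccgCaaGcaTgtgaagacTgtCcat
Gli3: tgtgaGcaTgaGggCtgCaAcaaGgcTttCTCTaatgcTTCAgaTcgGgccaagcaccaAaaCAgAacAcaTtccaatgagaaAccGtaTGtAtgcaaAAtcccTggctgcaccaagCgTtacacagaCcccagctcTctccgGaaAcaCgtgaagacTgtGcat
Over this stretch Gli1 was 82.4% identical to Gli2 and 80% identical to Gli3, and Gli2 was 83% identical to Gli3.

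Between 13752801 and 30823443 reads were counted in genes per library, with the smallest number in Gli1Het 1, and between 19938 and 22728 genes had at least 1 count. Levels are given in CPM, the share of a library's gene reads on a fixed scale, where 1 read was worth 0.0324 to 0.0727 CPM, and levels compared between genes are given in TPM, in which reads are divided by the length of the exons and scaled to the same sum in every library. Several libraries went against their labels or stood apart. Although each library was labelled as 1 male and 1 female, Xist, the RNA that coats the inactive X chromosome of female cells, was at 0.0727 CPM in Gli1Het 1, which is 1 read, and at 5.42 CPM in Gli1Null 3. In the other 4 libraries Xist lay between 220 and 408 CPM. Gli1Het 1 and Gli1Null 3 had the highest summed levels of the Y-linked genes Ddx3y, Uty, Kdm5d and Eif2s3y, at 259 and 276 CPM, against 61 to 158 CPM in the other 4. The libraries of low Xist were thus 1 of each genotype. In Gli1Het 3 and Gli1Null 1, genes of the interferon response were far above the other 4 libraries, again 1 library of each genotype, as described further on. Gli1Het 1 was also highest in myelin RNA, with Mbp at 661 CPM against 80 to 287 CPM, and Gli1Het 2 was far above the others in the choroid plexus gene Ttr, at 95.6 CPM against at most 1.53 CPM. Fits without these libraries are given beside the results for Gli1 and for the gene lists.

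The transcriptome shared by the 6 libraries held genes of the SVZ lineage, with astroglia-like stem cell genes, cycling progenitor genes and neuroblast genes all at high levels. Markers of mature astrocytes were high as well, and the lists used here do not separate stem cells from mature astrocytes. By CPM the most abundant gene was Apoe, the main lipid carrier of astroglia, at 4500 CPM ± 713 (SD, n = 6), followed by Cpe, a peptide-processing enzyme, at 4210 ± 641, and Cst3, a secreted protease inhibitor, at 3380 ± 669. The nuclear noncoding RNA Malat1 was at 3320 ± 742 CPM and Slc1a3, the glutamate transporter GLAST of astroglia and stem cells, at 2970 ± 706. Ccnd2, the D cyclin of cycling neural progenitors, came next at 2830 ± 285 CPM. The remaining genes of the top 20 were H3f3b, Ckb, Eif4g2, Clu, Tuba1a, Lars2, Tmsb4x, Scd2, Plpp3, Tubb5, Mfge8, Hnrnpa2b1, Hnrnpk and Ptma, between 2690 and 1570 CPM. They join genes of astroglia, such as Clu, Scd2, Plpp3 and Mfge8, to genes of the growing neuronal cytoskeleton, such as Tuba1a, Tubb5 and Tmsb4x. None of these 20 genes was called between the genotypes (adjusted p of 1 for each, edgeR).

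In TPM, and among genes longer than small noncoding RNAs, the order was led by Cst3 at 9750 TPM, Apoe at 7690, the mitochondrial subunit gene mt-Co3 at 6890, Cpe at 5900, Tmsb4x at 5270, Tuba1a at 4640 and Ptma at 3920. The genes Gm23935 (57 bases of exon) and Gm23134 (87 bases), annotated as miRNAs, and the processed pseudogene Hmgn2-ps1 (279 bases) also ranked among the first 10, at 12000, 4730 and 3450 TPM. Levels of features this short, and of copies of other genes, are uncertain in gene counts. No single gene dominated a library: the 20 most abundant genes held 5.02% of the counts and the first 100 held 13.2%. In all 6 libraries 13805 genes reached 1 CPM, 10062 reached 10 CPM, 2180 reached 100 CPM and 39 reached 1000 CPM. Of the 100 most abundant genes of a library, 74 were shared by all 6.

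The labelled cell type was checked against 12 lists of cell type markers. All 16 genes of the neural stem cell list were above 10 CPM in their mean over the 6 libraries. Slc1a3 led it, then Gja1, the connexin of astroglia, at 1300 CPM, Aldoc at 982 CPM and Slc1a2 at 797 CPM. The stem cell transcription factor Sox2 was at 371 CPM, Gfap at 99.5 CPM and Nes at 72.6 CPM. Of the transit amplifying list, 9 of 10 genes were above 10 CPM, with Ccnd2, Sox4 at 1500 CPM and Dlx2 at 1060 CPM, while Gsx2 was near 0 with 7 reads in Gli1Het and 3 in Gli1Null. All 15 neuroblast genes were above 10 CPM, among them Dlx1 at 1500 CPM, the noncoding RNA Dlx6os1 at 1050 CPM, Tubb3 at 601 CPM and Dcx, a microtubule protein of migrating neurons, at 454 CPM. Genes of dividing cells were also high: all 18 of the DNA replication and mitosis list were above 10 CPM, with Top2a at 633 CPM and Mki67 at 288 CPM.

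Markers of mature astrocytes were as high as those of the lineage, with a median member at 273 CPM against 189 CPM in the neural stem cell list, 272 CPM in the transit amplifying list and 316 CPM in the neuroblast list. This list summed to 1940 to 3530 CPM, led by Atp1b2 at 695 CPM, Htra1 at 408 CPM and Itih3 at 400 CPM, and astroglial genes are in part shared with SVZ stem cells. In the lists of the other cell types the median member was at 0.67 to 6 CPM. The oligodendrocyte list summed to 324 to 1170 CPM, mostly from Mbp, Cnp and Mobp, while Mog, Mag and Opalin were below 5 CPM in every library and Cldn11 was below 1 CPM. Olig1 and Olig2, which the oligodendrocyte lineage shares with progenitors, were at 37.4 and 41.9 CPM. Of the other oligodendrocyte precursor markers, Cacng4 was at 69.6 CPM, Pdgfra at 5.41 CPM, C1ql1 at 5.23 CPM and Cspg4 at 3.24 CPM. Sox10 was at 1.04 CPM, Gpr17 was at 0.234 CPM and Neu4 had no reads. The microglia list summed to 69.6 to 96.5 CPM, and its defining members Ptprc, Aif1 and Tyrobp lay between 0 and 0.436 CPM. The ependymal list summed to 61.8 to 117 CPM, with Foxj1 at 17.1 CPM. The mature neuron list summed to 122 to 133 CPM, led by Snap25 at 46.7 CPM, Ppp1r1b at 38 CPM, Syt1 at 16.7 CPM and Rbfox3 at 13.9 CPM, with the glutamatergic marker Slc17a7 at 0.105 CPM. Endothelial markers summed to 2.93 to 15.9 CPM.

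**Figure D1:**
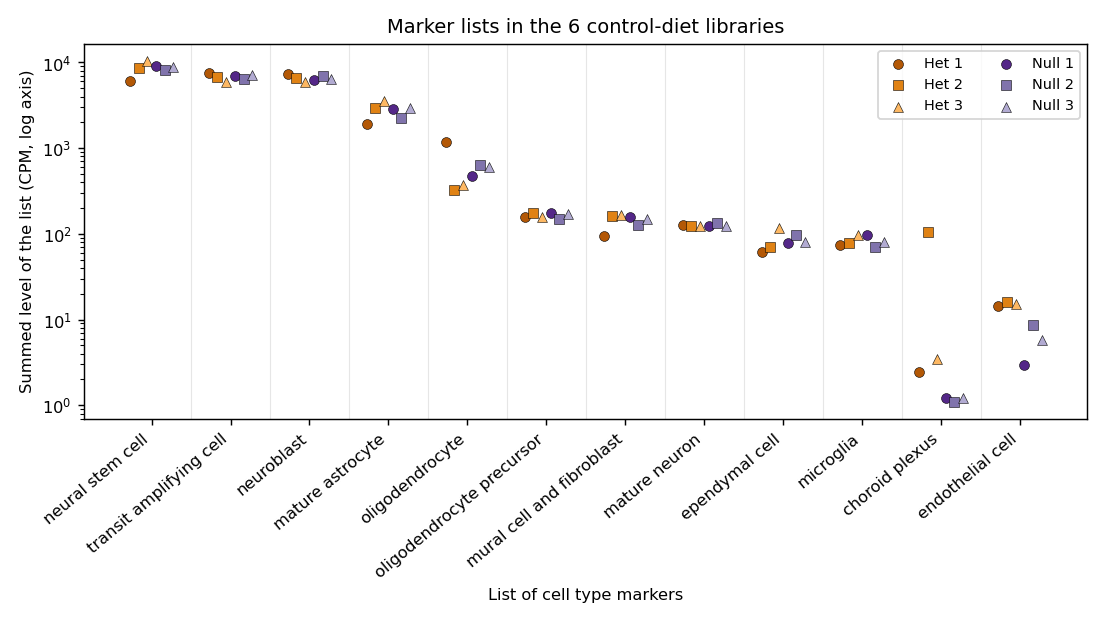
Summed level of each list of cell type markers (CPM, log axis) in the 6 libraries, with Gli1Het in orange and Gli1Null in purple and 1 point a library. The stem cell, transit amplifying and neuroblast lists sit between 5900 and 10400 CPM, and Gli1Het 2 stands apart in the choroid plexus list at 106 CPM.

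The balance of the stem cell and neuroblast lists varied among the libraries, and most of all within Gli1Het. The neural stem cell list summed to 6100, 8620 and 10400 CPM in Gli1Het 1 to 3 and to 9100, 8200 and 8840 CPM in Gli1Null 1 to 3. The neuroblast list ran the other way in Gli1Het, at 7350, 6570 and 5990 CPM, and lay at 6200, 6890 and 6490 CPM in Gli1Null. Gli1Het 1 thus had the lowest level of the stem cell list and the highest of the neuroblast list. Gli1Het 3 had the reverse, and the 3 Gli1Null libraries lay between them. The mature astrocyte list was likewise lowest in Gli1Het 1, at 1940 CPM, and highest in Gli1Het 3, at 3530 CPM. The first principal component, with 36.9% of the variance of log2 CPM over the genes tested, placed Gli1Het 1 at -56.9 and Gli1Het 3 at 36, with the Gli1Null libraries between -7.46 and 13.3. The genotypes did not separate as wholes. The mean distance between libraries of different genotype was 71.3 (9 pairs, Euclidean distance of log2 CPM over 16730 genes), and the mean distance between libraries of the same genotype was 74.6 (6 pairs), with 80.9 within Gli1Het and 68.3 within Gli1Null. The difference of -3.32 had a two-sided exact permutation p of 0.3, where 0.1 is the smallest p that 3 against 3 can give. Rank correlations across genes were 0.977 to 0.99 within a genotype and 0.984 to 0.992 between genotypes, across genes that are not independent replicates.

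Of the 16730 genes tested, 1 differed between the genotypes, and it was Gli1 itself (0.00598% of the genes tested, all of it higher in Gli1Het, at a Benjamini-Hochberg adjusted p under 0.05 in edgeR's quasi-likelihood test). After Gli1, the smallest adjusted p was 1. In all, 429 genes (2.56%) had an unadjusted p under 0.05, of which 198 (1.18%) were higher and 231 (1.38%) lower in Gli1Het. No overlap between groups was seen in 1279 genes (7.64%), 707 higher (4.23%) and 572 lower (3.42%) in Gli1Het. DESeq2 on the same libraries called 2 of 26028 genes (0.00768%), Gli1 and Xlr3b, so that it called 0 members of every list below other than Gli1. The median log2 fold change of all genes was 0.01. The fold change was over 2 in 215 genes, 140 higher and 75 lower in Gli1Het. Only 6 of these reached a mean of 10 CPM in the higher genotype. Over all 6 libraries, 10643 tested genes had a mean of at least 10 CPM. For these the unadjusted 95% interval of the fold change lay within 2-fold either way in 98.3% and within 1.5-fold in 86.8%.

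**Figure D2:**
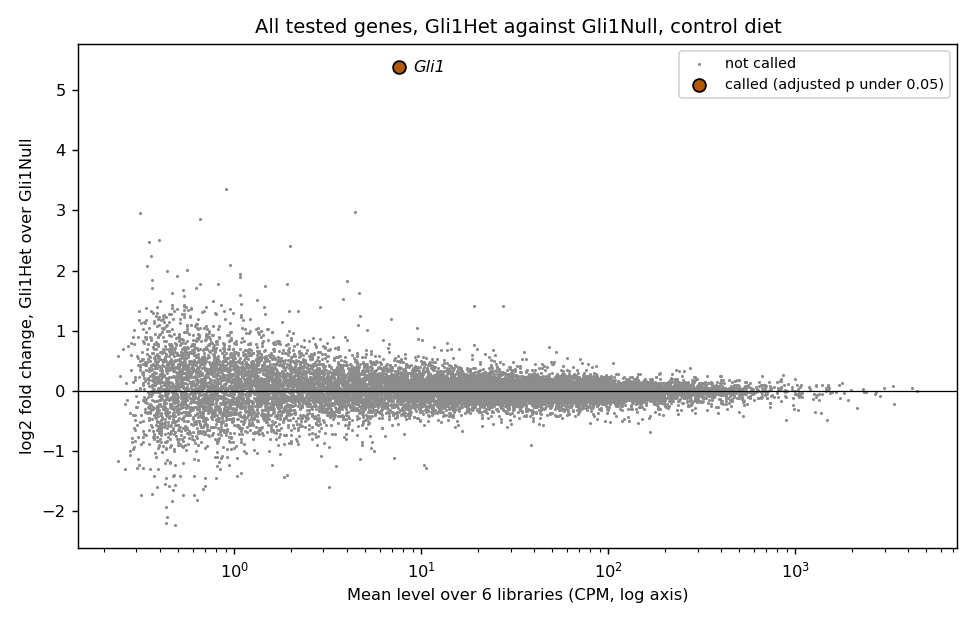
Log2 fold change of Gli1Het over Gli1Null against the mean level (CPM, log axis) for the 16730 genes tested, 1 point a gene. Gli1, at 5.39 on the log2 scale, is the one gene called and lies apart from the rest, whose scatter widens at low levels.

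Gli1 (ENSMUSG00000025407; mm10 chr10:127329882-127341974, minus strand) was measured first as the check of the genotype labels. It was at 8.65, 18.3 and 17.8 CPM in Gli1Het 1 to 3 (119, 435 and 493 reads) and at 0.362, 0.389 and 0.293 CPM in Gli1Null 1 to 3 (11, 12 and 8 reads). The groups were far apart, every Gli1Null library lay close to the other two, and all 6 libraries matched their labelled genotype. The mean was 14.9 CPM ± 5.41 (SD, n = 3) in Gli1Het and 0.348 ± 0.0497 in Gli1Null, or 2.34% of the Gli1Het level. The log2 fold change was 5.39 (SE 0.364, 95% interval 4.56 to 6.21), a 41.9-fold difference (23.6 to 74.2), with an adjusted p of 0.00249 in edgeR. Gli1 is not an abundant transcript in these cells, ranking 9750 by level in Gli1Het. The neighbouring Arhgap9, on the other strand, overlaps the last bases of Gli1 and was at 0 to 0.252 CPM, so few reads could be shared between them.

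The call of Gli1 depended on which libraries set the spread, while its direction and size did not. The log2 fold change lay between 4.61 and 5.65 over 19 alternative fits, and Gli1 was called in 15. The 19 include a fit with a term for label numbers under 10, in which Gli1Het 1 alone stood for its genotype. In an edgeR fit of all 12 libraries of the series, its adjusted p was 1 and no gene was called (253 genes at an unadjusted p under 0.05), while DESeq2 on the same 12 libraries called Gli1 alone (0.00363% of its genes), with an adjusted p of 0.000144. Without Gli1Null 1 the adjusted p of Gli1 was 0.071 and without Gli1Null 3 it was 0.0587, with 0 genes called in either and 398 and 432 genes at an unadjusted p under 0.05. Without both libraries of low Xist, Gli1 was again the one gene called, at a log2 fold change of 5.54 and an adjusted p of 0.00119. Without both libraries of high interferon response, the log2 fold change was 5.27 with an adjusted p of 0.0795, and 0 genes were called (356 at an unadjusted p under 0.05). With the Y-linked level as a term it was 5.41 with an adjusted p of 0.0025.

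No other gene of the Hedgehog pathway was called. Of 22 genes in the list, 18 passed the filter on low counts and 1 of them, Gli1, was called, beside 0.00598% of all genes. The ligands were at or near 0: Shh had 0 reads in Gli1Het and 4 in Gli1Null, Dhh 6 and 1, and Ihh 8 and 20, and Disp1, which releases ligand, had none. Among the receptors, Ptch1 was at 56.9, 99.7 and 103 CPM in Gli1Het and 79.1, 71.7 and 87.3 CPM in Gli1Null. The groups overlapped, and the log2 fold change was 0.11 (95% interval -0.34 to 0.57). The ligand-binding inhibitor Hhip was at 2.62, 4.83 and 4.22 CPM in Gli1Het and at 3.49, 2.85 and 3.77 CPM in Gli1Null, with a log2 fold change of 0.21 (-0.42 to 0.83). For both of these targets of the pathway Gli1Het 1 was the lowest library, as it was for Gli1 within Gli1Het, for the transducer Smo, the co-receptor Boc and Gli2.

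The transducer and the other Gli factors also overlapped between genotypes. Smo was at 62.9, 90.8 and 87.5 CPM in Gli1Het and 86.8, 85.8 and 97.1 CPM in Gli1Null, with a log2 fold change of -0.17 (-0.49 to 0.15). Gli2, an activator, was at 16.4, 28.2 and 27.2 CPM in Gli1Het and 23.4, 25.3 and 33.7 CPM in Gli1Null, with a log2 fold change of -0.21 (-0.71 to 0.30). Gli3, mostly a repressor, was at 34.7, 49.7 and 51.1 CPM in Gli1Het and 41.1, 39.2 and 49.8 CPM in Gli1Null, with a log2 fold change of 0.05 (-0.33 to 0.43). In TPM, the mean over the 6 libraries was 16.9 for Gli3, 13.7 for Gli2 and 5.65 for Gli1. Sufu, the inhibitor that binds Gli proteins, was the most even of the pathway, at 77 to 86.8 CPM with a log2 fold change of 0.01 (-0.19 to 0.21). Gpr161, a ciliary inhibitor of the pathway, was the one other member whose groups did not overlap, at 6.33, 9.82 and 8.94 CPM in Gli1Het and 10.1, 15.4 and 11.7 CPM in Gli1Null. Its log2 fold change was -0.57 (-1.09 to -0.06), and its adjusted p was 1 in edgeR.

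Without both libraries of low Xist, which leaves 2 libraries a genotype, Gli1 was the one Hedgehog gene called and the median of the 18 was 0.10. In this fit 15 of the 18 were higher and 3 lower in Gli1Het. At an unadjusted p under 0.05 were 6 of the 18, a larger share than the 941 of all genes. The log2 fold change was then 0.40 for Ptch1, 0.48 for Hhip, 0.30 for Gli3, 0.16 for Gli2 and -0.46 for Gpr161. The median was -0.01 without both libraries of high interferon response, with 2 at an unadjusted p under 0.05 and 0 called.

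**Figure D3:**
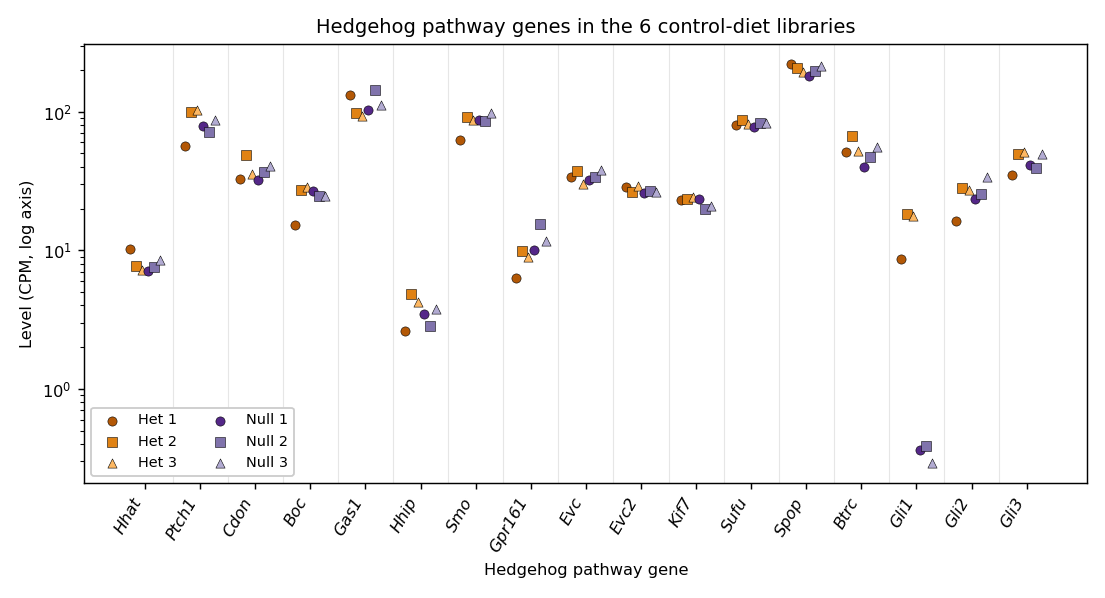
Levels (CPM, log axis) of Hedgehog pathway genes that were tested, 1 point a library, with Gli1Het in orange and Gli1Null in purple. Gli1 is the gene at which the genotypes part, from 8.65 to 18.3 CPM down to 0.293 to 0.389 CPM.

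Genes described in other tissues as Gli targets gave no call. Of 12, 11 were tested and 0 were called by edgeR, with 0 at an unadjusted p under 0.05, and DESeq2 called 0 as well. Their median log2 fold change was -0.04, beside 0.01 for all genes, and ran from -0.16 to 0.21. Mycn was at 213, 196 and 163 CPM in Gli1Het and 214, 222 and 178 CPM in Gli1Null, Ccnd2 had a log2 fold change of -0.09 (-0.42 to 0.23), and Bcl2, a survival protein, had 0.19 (-0.20 to 0.58). For all 11 the unadjusted 95% interval lay within 2-fold either way. Without both libraries of low Xist the median was -0.06, with 5 genes higher and 6 lower in Gli1Het. In that fit 4 of the 11 were at an unadjusted p under 0.05, a larger share than over all genes, and 0 were called. The consensus GACCACCCA, searched on both strands of the 250 bases before the start of each gene in RefSeq (GRCm38.p6), was found in 0 of the 17 Hedgehog genes and 0 of the 7 described targets with an entry, and in 0.225% of all such windows. That says only that these letters are not in these windows.

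The genes around the targeted locus were looked at because both genotypes carry the knock-in, on 1 or on both copies of chromosome 10. Within 500 kb on either side of Gli1, 51 genes are annotated and 38 were tested, of which 0 were called by edgeR and 1 was at an unadjusted p under 0.05. Gli1Het and Gli1Null stood apart in 7 of the 38 (18.4%, beside 7.64% of all genes). The 1 gene was Lrp1, a lipoprotein receptor, at 278, 316 and 336 CPM in Gli1Het and 231, 228 and 248 CPM in Gli1Null, with a log2 fold change of 0.38 (0.16 to 0.61) and an adjusted p of 1. The log2 fold changes of the 38 had a median of 0.05 and ran from -0.49 to 0.76. The median was -0.03 without both libraries of low Xist and 0.15 without both of high interferon response, with 0 called in either.

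The stem cell lineage itself gave no call. Of 16 neural stem cell genes 0 were called by edgeR and 0 were at an unadjusted p under 0.05. DESeq2 called 0 too, and the median log2 fold change was -0.10. Sox2 was at 350, 385 and 350 CPM in Gli1Het and 355, 377 and 409 CPM in Gli1Null, with a log2 fold change of -0.08 (-0.31 to 0.14). Gfap varied more, at 55.8, 103 and 149 CPM in Gli1Het and 105, 99.7 and 85.1 CPM in Gli1Null, with a log2 fold change of 0.08 (-0.56 to 0.71). The median of the list was 0.02 without Gli1Het 1 and -0.22 without Gli1Het 3, the libraries at the ends of the stem cell range, and -0.38 with a term for sample label numbers under 10, where 7 genes were at an unadjusted p under 0.05 and 0 were called. It was 0.07 without both libraries of low Xist and -0.20 without both of high interferon response. Of 15 neuroblast genes and 18 genes of DNA replication and mitosis 0 were called, with medians of 0.02 and -0.01 and 0 genes at an unadjusted p under 0.05 in either. Mki67, the proliferation marker Ki-67, was at 236, 330 and 310 CPM in Gli1Het and 281, 304 and 268 CPM in Gli1Null, with a log2 fold change of 0.03 (-0.27 to 0.32). Of 9 transit amplifying genes tested 0 were called and 2 were lower in Gli1Het without overlap at an unadjusted p under 0.05 (beside 3.42% and 1.38% of all genes in this direction). These were Hes6, a bHLH factor that opposes Hes1, at 283, 268 and 216 CPM in Gli1Het and 370, 287 and 329 CPM in Gli1Null (log2 fold change -0.37), and Btg2, an antiproliferative factor, at 120, 157 and 140 CPM in Gli1Het and 165, 167 and 180 CPM in Gli1Null (log2 fold change -0.31). Their adjusted p was 1.

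Regional identity was compared because Hedgehog activity and the stem cells it marks are ventral. Of 8 ventral forebrain factors tested 0 were called, 2 were lower in Gli1Het at an unadjusted p under 0.05 and the median log2 fold change was -0.16. Without regard to p, 2 were lower and 1 higher without overlap, beside 3.42% and 4.23% of all genes. Lhx6, a LIM factor of interneuron precursors, was at 4.73, 4.37 and 4.51 CPM in Gli1Het and 7.6, 16.1 and 5.57 CPM in Gli1Null, with a log2 fold change of -1.12 (-1.93 to -0.30). The level was even in Gli1Het and spread in Gli1Null, with Gli1Null 2 the highest. Vax1 was at 44.1, 41.7 and 41.5 CPM in Gli1Het and 55.8, 65.2 and 44.3 CPM in Gli1Null, with a log2 fold change of -0.39 (-0.72 to -0.06). Zic1, a zinc finger factor, went the other way, at 24.2, 25.4 and 23.2 CPM in Gli1Het and 20.5, 14.4 and 21.2 CPM in Gli1Null (log2 fold change 0.36, unadjusted p of 0.064 in edgeR across all genes). The ventral factors Nkx2-1 and Nkx6-2 overlapped between genotypes, at 2.14 to 7.01 and 13.5 to 23.6 CPM. Of 8 dorsal factors 0 were called and 1, Lhx2, was lower in Gli1Het without overlap (beside 3.42% of all genes), at 147, 172 and 150 CPM against 208, 195 and 190 CPM (log2 fold change -0.35, -0.57 to -0.14). The median log2 fold change of the dorsal factors was -0.19, with 7 of the 8 lower in Gli1Het, so a negative median was not particular to the ventral list. The adjusted p of Lhx6, Vax1, Zic1 and Lhx2 was 1 in edgeR. Of 9 genes of olfactory interneuron fates 0 were called, and 0 were at an unadjusted p under 0.05.

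Other signalling lists gave no call. Of 14 Notch pathway genes 0 were called and 0 were at an unadjusted p under 0.05, with a median log2 fold change of -0.03. Notch1 was at 322, 405 and 377 CPM in Gli1Het and 286, 342 and 380 CPM in Gli1Null. Of 14 BMP pathway genes tested 0 were called and 1 was at an unadjusted p under 0.05, with a median of -0.04. This was the BMP target Id2, at 73.5, 95.3 and 90.6 CPM in Gli1Het and 112, 105 and 116 CPM in Gli1Null (log2 fold change -0.37, adjusted p of 1). Of 13 immediate early genes 0 were called, and 2 were lower in Gli1Het at an unadjusted p under 0.05. Dusp1, a MAP kinase phosphatase, was at 170, 114 and 136 CPM in Gli1Het and 180, 191 and 198 CPM in Gli1Null (log2 fold change -0.45), and Ier2 had a log2 fold change of -0.48 with groups that overlapped. These genes respond to tissue dissociation as well as to signals in the animal, which cannot be told apart here. Of 9 genes that the study names for these cells 1 was called, Gli1 itself.

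The same lists were fitted without the libraries that stood apart, and 0 members were called in these fits. Without both libraries of low Xist the median log2 fold change was -0.08 for transit amplifying, -0.07 for neuroblast, -0.06 for DNA replication and mitosis, -0.17 for ventral, 0.05 for dorsal and -0.11 for olfactory interneuron genes, and it was 0.06 for Notch, 0.06 for BMP and 0.10 for immediate early genes. Without both libraries of high interferon response the medians of these 9 lists ran from -0.27 (immediate early genes) to 0.11 (olfactory interneuron genes), and without Gli1Het 2 from -0.28 (dorsal factors) to 0.09 (olfactory interneuron genes). The sign of the median thus depended on the libraries kept for each of these lists but the ventral one. With all 6 libraries kept, the dorsal median of -0.19 was below the ventral median of -0.16.

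After Gli1, the 6 higher and the 6 lower genes with the smallest unadjusted p in their direction, at 5 CPM or more in the higher group and with groups that did not overlap, are given as a description, since the adjusted p of each was 1 in edgeR. Higher in Gli1Het was Xlr3b, an X-linked gene of a family of near-identical copies, at 4.14, 8.82 and 5.77 CPM against 1.15, 1.56 and 2.56 CPM. Its log2 fold change was 1.83 (0.98 to 2.67), it was called by DESeq2 on the 6 libraries with an adjusted p of 0.0155, and the split of reads between the copies is uncertain. Rasgrf1, a Ras exchange factor, was at 9.16, 9.11 and 10.6 CPM against 5.63, 2.6 and 4.28 CPM (log2 fold change 1.19), and Agt, the angiotensinogen of astroglia, was at 49.2, 70 and 61.5 CPM against 33.8, 30.1 and 44.3 CPM (0.73). Zfp382, Ascc3 and Dab2 were the other three, with log2 fold changes of 0.68, 0.44 and 1.01. All 12 kept their direction without both libraries of low Xist and without both of high interferon response. This adds no support, since groups chosen for not overlapping keep their direction whichever libraries are left out. Lower in Gli1Het was Pold2, a subunit of DNA polymerase delta, at 65, 71.7 and 60.8 CPM against 103, 95.3 and 86.2 CPM (log2 fold change -0.54). Ptpa, an activator of the phosphatase PP2A, was at 120, 142 and 121 CPM against 184, 176 and 165 CPM (-0.47). Usp5, a deubiquitinase, Agpat4, an enzyme of phospholipid synthesis, Kdm1b, a histone demethylase, and Sec61a1, the channel of protein import into the endoplasmic reticulum, had log2 fold changes of -0.39, -0.59, -0.43 and -0.41.

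Genes of the mitochondrial genome were lower in Gli1Het throughout, though none was called. They took 0.586%, 0.643% and 0.587% of the counts in Gli1Het and 0.762%, 0.976% and 0.666% in Gli1Null. The groups did not overlap, and the exact permutation p of 0.1 is the smallest the design allows. All 13 protein-coding genes had a log2 fold change below 0, with a median of -0.43. Of these 11 were at an unadjusted p under 0.05, 8 did not overlap between the groups (beside 1.38% and 3.42% of all genes in this direction) and 0 were called by edgeR or DESeq2. Mt-Co3, a subunit of cytochrome oxidase, was at 1160, 1360 and 1190 CPM in Gli1Het and 1660, 2090 and 1410 CPM in Gli1Null, with a log2 fold change of -0.49 (-0.84 to -0.13). Mt-Co2, a further subunit, was at 444, 471 and 437 CPM in Gli1Het and 593, 677 and 543 CPM in Gli1Null, with a log2 fold change of -0.43 (-0.68 to -0.19). Gli1Null 2 was the highest library for both, and without it the median of the 13 genes was -0.24, with 3 at an unadjusted p under 0.05. The median was -0.50 without both libraries of low Xist, with 11 at an unadjusted p under 0.05, and -0.43 without both of high interferon response, with 6. The 13 genes are transcribed together from 1 small genome and are not independent of each other. The paper reports more sorted cells from Gli1Null than from Gli1Het mice, and the part of cell yield was not tested.

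**Figure D4:**
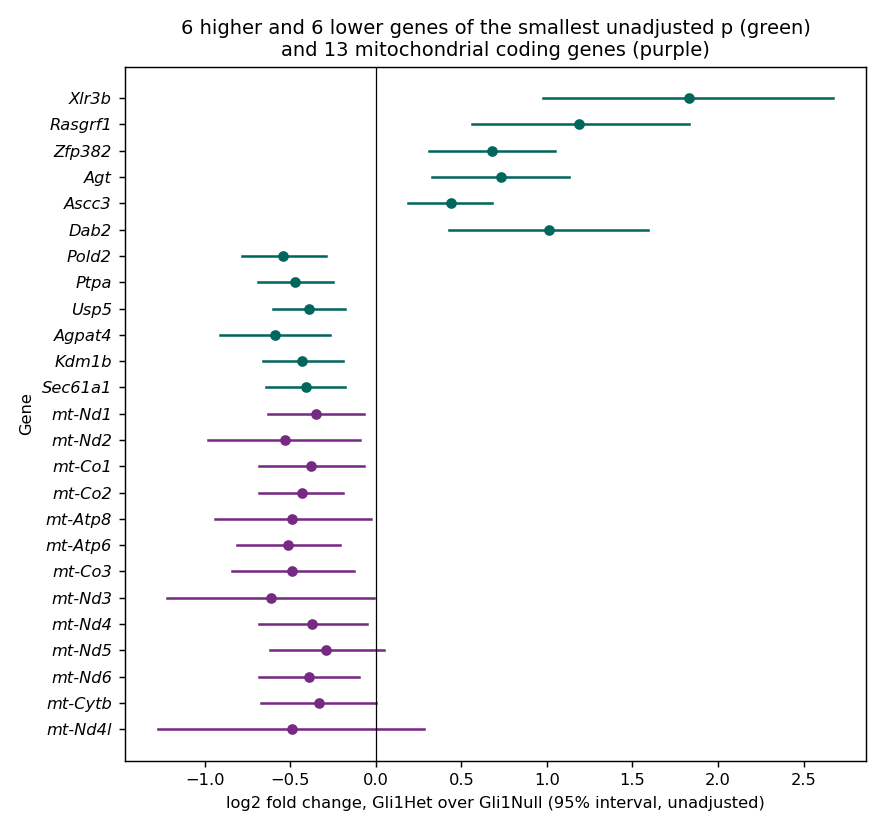
Log2 fold change of Gli1Het over Gli1Null with its unadjusted 95% interval for the 6 higher (after Gli1) and 6 lower genes of the smallest unadjusted p in their direction (green) and the 13 protein-coding genes of the mitochondrial genome (purple). All 13 mitochondrial genes lie below 0, with a median of -0.43.

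Endothelial RNA was scarce and was higher in every Gli1Het library than in any Gli1Null library. The list of 10 markers summed to 14.5, 15.9 and 15.1 CPM in Gli1Het and 2.93, 8.76 and 5.82 CPM in Gli1Null. Of 7 markers tested 0 were called by edgeR or DESeq2, and 4 did not overlap between the groups and were at an unadjusted p under 0.05 (beside 4.23% and 1.18% of all genes in this direction). The median log2 fold change was 1.58. Flt1, a VEGF receptor, was at 2.84, 3.69 and 3.53 CPM in Gli1Het and 0.165, 1.17 and 0.549 CPM in Gli1Null, with a log2 fold change of 2.40 (1.17 to 3.63). Ly6c1, Slco1a4 and Kdr had log2 fold changes of 1.95, 1.77 and 1.58. The filter on low counts can keep a gene for its level in 1 genotype alone. Kdr had 17, 12 and 20 reads in Gli1Het and 4, 11 and 8 in Gli1Null. The count of 4 and the median are thus of members that the filter favoured. Of the members not tested, the VE-cadherin gene Cdh5 had 8 reads in each genotype and at most 7 in a library. Emcn had 10 reads in Gli1Het and 20 in Gli1Null, and Tek had 49 and 16. The median was 1.66 without both libraries of low Xist and 1.11 without both libraries of high interferon response, and without Gli1Het 2, the library of high Ttr, it was 1.59. The low level of Folr1, a folate receptor on the choroid plexus list, was likewise higher in each Gli1Het library, at 0.364, 1.6 and 1.48 CPM in Gli1Het and 0.197, 0.162 and 0.11 CPM in Gli1Null. The part of other cells, and of the larger cell yield that the paper reports for Gli1Null mice, in any genotype difference was not tested.

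Other genes varied widely within each genotype. Ranked by the spread of log2 levels within genotypes at a mean of 20 CPM or more, the first 10 genes were Xist and its antisense partner Tsix, 1 gene ID without a name in the files, and 7 genes known to be induced by interferon, which were Usp18, Oasl2, Ifit1, Ifit3, Gbp3, Rtp4 and Ifit3b. Reads of Xist and Tsix cannot be told apart where these genes overlap. Interferons are released on viral infection and tissue stress, and their receptor signals to a DNA element, the interferon-stimulated response element, before the induced genes.

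All 17 genes of the interferon response list were highest in Gli1Het 3 and Gli1Null 1. Their summed level was 151, 120 and 1340 CPM in Gli1Het and 1060, 87.3 and 87.5 CPM in Gli1Null. The lower of the 2 high libraries was at least 2.5 times the highest of the other 4 for each of the 17 genes, and 11.3 times at the median, and Gli1Het 3 was above Gli1Null 1 for 14 of them. Usp18, the protease that removes Isg15, was at 15.6, 2.6 and 155 CPM in Gli1Het and 124, 1.36 and 0.549 CPM in Gli1Null. Ifit1, which binds foreign RNA, was at 6.54, 3.82 and 162 CPM in Gli1Het and 120, 2.08 and 1.46 CPM in Gli1Null. The pattern crossed genotype, and of 14 members tested 0 were called by edgeR, 0 were at an unadjusted p under 0.05, and the median log2 fold change was 0.36. For none of the 14 did the unadjusted 95% interval lie within 2-fold, so a genotype difference in this response was not detectable with the 6 libraries. Among the 4 without the high response, 13 of 14 members tested were higher in Gli1Het, with a median log2 fold change of 0.57, and 0 were called. Of the 14, 6 were at an unadjusted p under 0.05. The share of all genes was 2.56% in the fit of 6 libraries, which is not the same fit. The count over all genes in the fit of 4 libraries is given with the Gli1 result. This fit was chosen after seeing the data, leaves 2 libraries a genotype and does not establish a difference. The 2 high libraries were not those of low Xist, at 318 and 220 CPM, and had microglia lists of 96.4 and 96.5 CPM against 69.6 to 81.1 CPM in the other 4. The part of these cells was not tested.

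**Figure D5:**
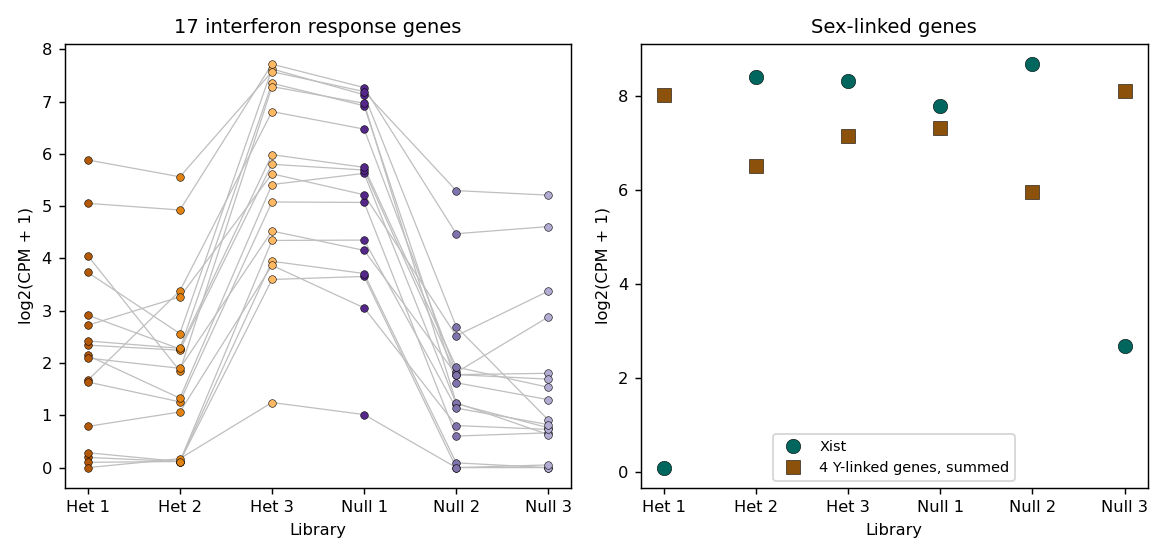
Left, the 17 genes of the interferon response list as log2(CPM + 1) in each library, 1 point a gene with thin lines joining the same gene. Right, Xist and the summed level of 4 Y-linked genes in each library on the same scale. The interferon genes are high in Gli1Het 3 and Gli1Null 1, and Xist is near 0 in Gli1Het 1 and low in Gli1Null 3, so that each pattern falls on 1 library of each genotype.

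The promoters of interferon genes are shown because genes high in the same 2 libraries are known to share this element. The element was searched as a pair of GAAA with any 2 bases between them on both strands of the 250 bases before each gene's start in RefSeq (GRCm38.p6), where overlapping matches were counted apart. It was found in 7 of the 11 list members with an entry, which were Isg15, Cxcl10, Oas1a, Bst2, Rsad2, Ifit3 and Ifit1, and in 2.98% of all 32851 windows. A match is a description and not a measured binding site. In 4 of the 7, printed 5′ to 3′ on the strand of the gene, the matches are in capitals. The windows are chr4:156200819-156201068 (minus strand) for Isg15, chr5:120907526-120907775 (minus strand) for Oas1a, chr19:34583279-34583528 (plus strand) for Ifit3 and chr19:34640639-34640888 (plus strand) for Ifit1.
Isg15: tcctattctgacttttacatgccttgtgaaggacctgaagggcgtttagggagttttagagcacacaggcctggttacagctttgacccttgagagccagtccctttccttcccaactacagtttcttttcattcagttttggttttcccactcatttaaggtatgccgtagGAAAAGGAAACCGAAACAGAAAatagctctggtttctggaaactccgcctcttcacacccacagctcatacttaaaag
Oas1a: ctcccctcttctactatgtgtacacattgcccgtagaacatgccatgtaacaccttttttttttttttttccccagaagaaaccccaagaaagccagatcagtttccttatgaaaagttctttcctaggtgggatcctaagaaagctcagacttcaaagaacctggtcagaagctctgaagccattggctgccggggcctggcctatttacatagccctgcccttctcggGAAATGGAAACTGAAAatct
Ifit3: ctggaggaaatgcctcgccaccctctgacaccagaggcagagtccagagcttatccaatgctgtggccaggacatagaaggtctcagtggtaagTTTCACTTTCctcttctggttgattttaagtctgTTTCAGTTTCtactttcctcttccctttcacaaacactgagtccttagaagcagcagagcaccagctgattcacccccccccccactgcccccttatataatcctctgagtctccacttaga
Ifit1: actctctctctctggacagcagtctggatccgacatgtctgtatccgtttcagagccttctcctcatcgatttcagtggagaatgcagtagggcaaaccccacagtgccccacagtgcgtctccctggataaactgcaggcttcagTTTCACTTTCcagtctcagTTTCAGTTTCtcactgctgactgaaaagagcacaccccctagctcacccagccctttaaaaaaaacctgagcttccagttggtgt
Isg15 held 3 overlapping matches and Oas1a 2, the last ending 5 bases before the start. Ifit3 and Ifit1 held 2 each, all on the other strand. Isg15, a ubiquitin-like modifier, was at 2.11, 1.39 and 32.8 CPM in Gli1Het and 32.6, 0.519 and 0.586 CPM in Gli1Null. Oas1a, an antiviral synthetase, had 2, 2 and 309 reads in Gli1Het and 353, 0 and 0 reads in Gli1Null. Ifit3 was at 2.18, 9.4 and 111 CPM in Gli1Het and 87.8, 2.53 and 6.37 CPM in Gli1Null, with the same 2 libraries highest as for Ifit1.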

How the data were processed

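Members and gene lists were chosen with earlier results of these data known, as was the choice to fit the 6 control-diet libraries alone. Per the submitters' processing notes, the authors used TopHat2 2.1.1 for alignment to mm10, then HTSeq 0.11.1 for gene counts. For the Ensembl release and the strand setting, nothing is given in the sources used here. The deposited sheet holds read counts as text cells that pair a gene ID with its count (an other, mixed unit), and the ID inside the cell was used, since in 33998 lines the first column named another gene. The deposited scaled signal holds these counts over a DESeq2 size factor of each library. Multiplied back, 100% of values were whole within 0.01, and edgeR on these reads called 1 gene, as on the counts. The table held 37991 genes, and 32919 IDs with 98.9% of the counts were in GENCODE M21. Rows without a gene did not enter totals or tests, and reads outside annotated features made up 56.2% to 58.4% of the reads with a single alignment. TPM was computed with GENCODE M21 exon lengths.

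Genes were kept by edgeR's filterByExpr with a minimum count of 10, scaled by TMM and fitted by genotype with edgeR 4.0.16 (R 4.3.3). P-values were adjusted over all genes by Benjamini-Hochberg at 0.05. DESeq2 1.42.0, limma 3.58.1 (voom with library weights), DESeq2 size factors, no filter, a minimum count of 30, leaving out each library, a term for label numbers under 10 and a block for replicate number were the alternatives. Only Gli1Het 2 and Gli1Het 3 had label numbers under 10, so that term left Gli1Het 1 alone to compare with Gli1Null. Fits without both libraries of low Xist or of high interferon response, with the Y-linked level, and on recovered reads were chosen after seeing the data. The fits were tested on simulated data with 200 changed genes. For single values, two-sided exact permutation tests were used. The rule for naming genes took Gli1 and Hedgehog genes, called genes, the 6 higher and 6 lower genes of the smallest unadjusted p at 5 CPM or more without overlap, the 20 most abundant genes, and in each list those of the highest level or smallest p. It also took the neighbours of Gli1 and the 10 genes of the largest spread within genotypes. The mitochondrial genes were chosen after their values were seen. Some genes of the lists are not reported here by name, though they are in the counts.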

Additional observations from a re-analysis of the deposited data

How the results depend on the processing

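Of 703 values of the 37 other named genes over the alternatives, 656 kept their direction or their side of the threshold, 46 changed sign without a call in either fit, and 1, Xlr3b in DESeq2 (log2 fold change 1.82), was called. The named genes include some chosen for groups that did not overlap, such as Xlr3b, which keep their direction when libraries are left out. The count of 656 thus adds no support. The 6-library comparison gave 2 called genes in DESeq2 and 0 in edgeR on all 12 libraries, where the log2 fold change of Gli1 was 5.38, and 0 without both libraries of high interferon response, where it was 5.27. Leaving out 1 library gave 0 to 1 called genes and a log2 fold change of Gli1 of 5.21 to 5.65, with adjusted p from 7.37e-05 to 0.071; both counts of 0 came without Gli1Null 1 or Gli1Null 3. The genes at an unadjusted p under 0.05 were 429 in the main fit and 253 in edgeR on 12 libraries. They were 698 under no filter, 974 in limma voom, 941 without both libraries of low Xist and 928 without Gli1Het 1. Same-numbered libraries did not deviate together (correlations of -0.101, -0.0297 and -0.0878). This cannot exclude a shared sort or preparation, which was not tested. With a replicate block in edgeR, Gli1 was again the 1 gene called, at a log2 fold change of 5.32 and an adjusted p of 0.0478. The difference in distance between and within genotypes was -3.11 over the 500 genes of the largest variance and -2.86 without interferon, Y-linked genes and Xist, each with an exact permutation p of 0.4. Precision is limited by 3 libraries a genotype and, for Gli1Null, by 8 to 12 reads of Gli1 a library. The cause of the lost calls was not tested.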
